A study of Mus musculus with 14 samples.

Results

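The DnaJ proteins, also called J proteins or Hsp40s, are the co-chaperones that direct Hsp70 to its clients. The members described here are the protein-coding genes of classes A, B and C (symbols beginning Dnaja, Dnajb or Dnajc followed by a number), with Dnajb1 left out, found by symbol in the 2 deposited count tables. They number 44 of 37991 genes: 4 of class A, 12 of class B and 28 of class C. From general knowledge, 6 were set apart as testis members (Dnajb3, Dnajb7, Dnajb8, Dnajb13, Dnajc5b and Dnajc5g), and the other 38 are called ubiquitous. That word means here only that a member is outside the testis set, whatever its range of tissues.

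Every DnaJ protein carries a J domain, whose conserved histidine, proline and aspartate triad makes Hsp70 hydrolyse ATP and close on a client. Class A proteins also have a zinc-binding region and a glycine and phenylalanine-rich stretch, class B proteins keep the stretch without the zinc region, and class C proteins share only the J domain and are mostly tied to 1 task or place in the cell. In male germ cells some members are made mainly as sperm form, while most others are expressed in nearly every tissue.

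Poly(A) RNA of mouse embryonic stem cells was sequenced in 7 groups of 2 libraries, all from the J1 line of 129S4/SvJae background. Experiment 1 had 4 groups: wild-type (WT) and Dnmt triple-knockout (TKO) cells, which lack the DNA methyltransferases Dnmt1, Dnmt3a and Dnmt3b, each with DMSO vehicle or with PRT4165, which inhibits PRC1, a polycomb complex that ubiquitinates histone H2A. Experiment 2 had 3 groups, all without treatment: WT, TKO, and TKO cells in which Tet1, an oxidase of methylated cytosine, was also knocked out (Tet1-KO TKO). No label says whether a genotype was 1 clone or several, so genotype and clone cannot be told apart, and no dose or duration of the inhibitor was found in the labels.

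Depth per library was 25588815 to 37399837 counts in experiment 1, and 23354015 to 41844823 counts in experiment 2. Levels are CPM (counts scaled to library size with TMM factors within each experiment), so levels were tested only within an experiment. Transcript of the targeted genes was lower but not absent in the knockouts: Dnmt1 was at 305 to 434 CPM in WT libraries and 116 to 158 in TKO libraries, and Tet1 was at 401 to 791 CPM in the other groups and 134 to 201 in Tet1-KO TKO. Dnmt3a was at 70.9 to 103 CPM in WT and 15 to 41.9 in TKO libraries, and Dnmt3b at 107 to 197 and 36.4 to 51.3. All 8 embryonic stem cell markers were at 1 CPM or more in all 7 groups, with summed levels of 3010 to 6310 CPM. In bulk RNA, fewer cells of a type and less RNA per cell cannot be told apart.

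Promoter sequence was taken from a RefSeq table on build GRCm38.p6 that holds 48 windows for 36 of the members, each from 250 bases before to 50 bases after a start site. The 5 members printed are those the results turn on, and sequence inside annotated untranslated regions is left out except where it surrounds a motif. The first is Dnajc5g (plus strand, chr5:31108238-31108306, 81 to 13 bases before the start), the member with the largest change, shown with its CG dinucleotides in capitals because CG is the site that the deleted methyltransferases modify.
Dnajc5g: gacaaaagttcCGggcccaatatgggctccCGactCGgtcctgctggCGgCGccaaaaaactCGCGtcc
The 250 bases before the Dnajc5g start held 12 CG, of which 7 are in the stretch shown. Over the 48 member windows the median number of CG was 24, with a range of 1 to 44, against a median of 7 over all 32851 windows.

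The heat shock factor recognises inverted repeats of GAA. A pair, GAANNTTC or TTCNNGAA, searched on both strands, was in 8 of 48 member windows (Dnaja1, Dnaja4, Dnajb4, Dnajb6, Dnajc10, Dnajc27 and Dnajc5g) and in 15.1% of all windows. The 3-unit form, the pair followed after any 2 bases by a further GAA (or, for TTCNNGAA, by a further TTC), so that it contains the pair, was in both windows of Dnajb6 and no other member, and in 0.603% of all windows. The pairs of Dnaja4 (plus strand, chr9:54699414-54699514) and Dnajb4 (minus strand, chr3:152193846-152194095), and the 3-unit element of Dnajb6 (plus strand, chr5:29735844-29735873), are in capitals.
Dnaja4: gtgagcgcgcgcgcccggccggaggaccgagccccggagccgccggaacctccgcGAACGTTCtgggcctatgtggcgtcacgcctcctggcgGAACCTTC
Dnajb4: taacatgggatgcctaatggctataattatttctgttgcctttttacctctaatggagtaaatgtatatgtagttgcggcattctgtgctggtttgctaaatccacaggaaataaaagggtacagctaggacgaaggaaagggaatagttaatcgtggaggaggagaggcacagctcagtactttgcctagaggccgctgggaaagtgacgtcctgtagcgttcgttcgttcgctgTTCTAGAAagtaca
Dnajb6: agctccgaGAATCTTCCGGAAcgctagacc
The Dnaja4 pairs begin 90 and 52 bases before the later of its start sites in the table. The Dnajb4 pair begins 14 bases before the later of its start sites, and the Dnajb6 element 46 bases before the earlier of its start sites. Dnaja4, Dnajb4 and Dnajb6 each have another window in the table, and only that of Dnajb6 holds a match.

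The endoplasmic reticulum stress element, CCAAT and CCACG with any 9 bases between them, was in 1 member window, that of Dnajc3 (plus strand, chr14:118937682-118937931), and in 0.119% of all windows. It begins 105 bases before the start and is in capitals.
Dnajc3: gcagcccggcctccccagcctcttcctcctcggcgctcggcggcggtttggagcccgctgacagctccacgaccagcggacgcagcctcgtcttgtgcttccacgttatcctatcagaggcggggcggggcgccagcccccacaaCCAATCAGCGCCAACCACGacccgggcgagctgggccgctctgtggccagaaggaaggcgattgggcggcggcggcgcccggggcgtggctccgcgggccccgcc
GGCGGGA, an E2F-type letter string, was in 10 of 48 member windows (11.3% of all windows), and the E-box string CACGTG was in 4 (7.15%). These counts describe letters in short windows only.

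The family was expressed broadly, and 41 of the 44 members passed the filter on low counts in each experiment. Dnajb7, Dnajb8 and Dnajc5b did not. Summed over members, the family made up 2680 to 3390 CPM per library. Per kilobase of exon, the highest members in WT vehicle cells were Dnaja2 at 108 CPM per kb, the spliceosome-associated Dnajc8 at 89.3, Dnaja1 at 51.5, the Hsp70 and Hsp90 adaptor Dnajc7 at 47.4 and the ribosome-associated Dnajc2 at 41.6. The 6 testis members together summed to 4.57 to 5.08 CPM in the 4 WT libraries of experiment 1 and to 9.85 to 12.6 in the 4 TKO libraries. Without treatment the sum was 5.58 to 7.28 CPM in WT, 8.7 to 9.68 in TKO and 4.03 to 4.27 in Tet1-KO TKO libraries, the last below both WT libraries. Of the 3 testis members tested, only Dnajc5g rose in TKO cells in either experiment.

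Dnajc5g, the gamma form of cysteine string protein and a testis-expressed gene, was silent in WT cells and on in every TKO library. It had 0 counts in both WT vehicle libraries and 0 in both WT untreated libraries. In TKO vehicle cells it was at 9.22 and 7.57 CPM (274 and 226 counts), in TKO inhibitor cells at 6.11 and 6.21 CPM, and in TKO untreated cells at 5.77 and 6.68 CPM. No TKO library overlapped a WT library. Against a floor of 3 counts over the WT group, Dnajc5g was at least 168-fold higher in TKO than WT cells under vehicle (edgeR adjusted p = 1.49e-15) and at least 105-fold higher without treatment (adjusted p = 2.07e-07). The fitted log2 value against a group at 0 depends on the prior count and is not given as a size. Dnajc5g passed the filter on low counts only through the knockout libraries. Its adjusted p-values in comparisons with WT vehicle or WT untreated cells and in the interaction, here and below, are therefore no separate support.

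Dnajc5g was lower in Tet1-KO TKO than in TKO cells, but not silent. Tet1-KO TKO libraries held 1.37 and 1.52 CPM, below both TKO untreated libraries and above both WT libraries, and the log2 change from TKO was -2.10 (SE 0.24, edgeR adjusted p = 0.000212). Against WT, Tet1-KO TKO cells were at least 24.6-fold higher (adjusted p = 5.53e-06). The neighbour that starts beside Dnajc5g on the opposite strand, Slc30a3, was looked at after these values were seen: it rose in TKO by 3.38 under vehicle (adjusted p = 5.31e-10) and 3.5 without treatment (adjusted p = 5.34e-06), and its value with loss of Tet1 was -0.65 (adjusted p = 0.0771). Over the 6 nearest coding genes tested, Slc30a3 included, the median was -0.22 and 0.05 in the same TKO comparisons.

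The inhibitor left Dnajc5g near silence in WT cells. The WT inhibitor libraries had 8 and 3 counts (0.228 and 0.122 CPM), against 0 under vehicle, at least 3.7-fold higher over the group (edgeR adjusted p = 0.00346). In TKO cells the inhibitor lowered it by a log2 of -0.45 (SE 0.13, adjusted p = 0.0105), and the libraries did not overlap. That fall did not pass without TKO vehicle replicate 1 (-0.31, adjusted p = 0.184) or without TKO inhibitor replicate 1 (-0.45, adjusted p = 0.0554), nor in DESeq2 (-0.44, adjusted p = 0.103).

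**Figure D1:**
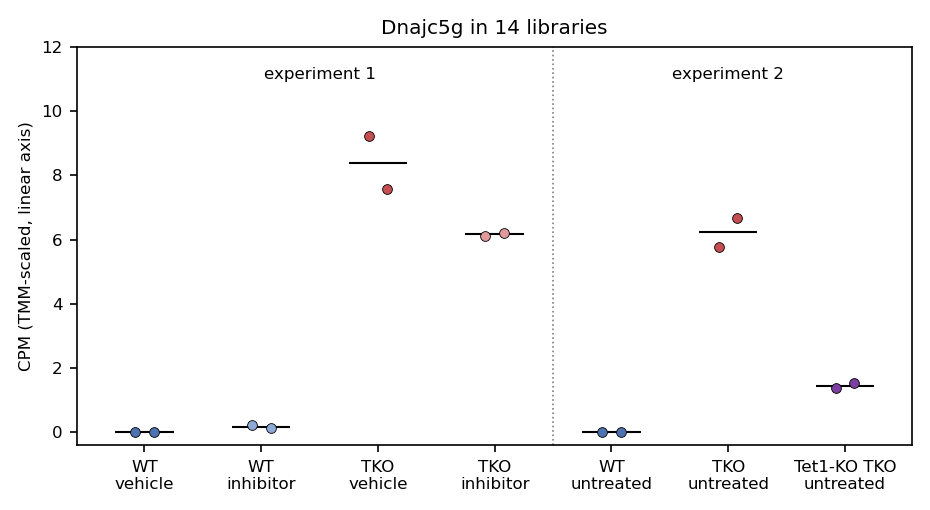
Dnajc5g level in CPM (linear axis) in each of 14 libraries, by group, with experiment 1 left of the dotted line and experiment 2 right of it; points are libraries and lines the mean of 2. TKO libraries sit between 5.77 and 9.22 CPM, Tet1-KO TKO libraries at 1.37 and 1.52, and WT vehicle and WT untreated libraries at 0.

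The other testis members did not share this pattern. Dnajb13, a radial spoke protein of sperm flagella and motile cilia, was at 3.75 and 3.76 CPM in WT vehicle, 2.36 and 2.88 in TKO vehicle, 3.59 and 3.18 with the inhibitor in WT, and 2.55 and 2.14 with it in TKO cells. Untreated WT cells had 4.27 and 4.94 CPM, untreated TKO cells 2.27 and 2.10, and Tet1-KO TKO cells 1.91 and 1.74. Every TKO library was thus lower than every WT library. The log2 change in TKO was -0.52 under vehicle (SE 0.17, edgeR adjusted p = 0.0106) and -1.07 without treatment (SE 0.23, adjusted p = 0.00199), and in Tet1-KO TKO against WT it was -1.33 (SE 0.23, adjusted p = 0.000412).

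Dnajb13 shares exon bases with Ucp2, and the strand setting of the counting is not given in the sources used here, so reads there cannot be assigned. Ucp2 fell by 1.05 and 1.17 on the log2 scale in the same TKO comparisons. Summed over 9 motile ciliated cell markers, the level was 37.3 to 50.4 CPM in WT, 23.6 to 33.3 in TKO and 13.7 to 14.5 in Tet1-KO TKO libraries, with none of the 9 at 0. The markers went both ways: of 8 tested, 2 rose and 5 fell in TKO in each experiment. Their highest changes were 3.56 under vehicle and 3.48 without treatment, and their lowest -2.5 and -1.85. Of all genes, 34.8% rose and 34.2% fell under vehicle, and 25.9% and 24.3% without treatment. Their part in the Dnajb13 result was not tested. The Dnajb13 call under vehicle was lost without TKO vehicle replicate 1 (-0.38). It also did not pass with library sizes alone (-0.37, edgeR adjusted p = 0.0628) or in DESeq2 (-0.51, adjusted p = 0.0616).

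Dnajb3 ranged from 0.398 to 2.03 CPM. It was at 0.964 and 1.12 CPM in WT vehicle, 0.909 and 0.603 in TKO vehicle, 0.998 and 1.02 with the inhibitor in WT, and 1.18 and 0.932 with it in TKO cells. Untreated WT cells had 0.953 and 2.03 CPM, untreated TKO cells 0.398 and 0.646, and Tet1-KO TKO cells 0.859 and 0.638. Only the untreated TKO comparison passed, at -1.5 (SE 0.45, edgeR adjusted p = 0.0145), and it rested on the higher WT library: without WT untreated replicate 2 it was -0.88 (adjusted p = 0.174), and without TKO untreated replicate 1 it was -1.18 (adjusted p = 0.107).

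The remaining testis members were at the edge of detection. Dnajb7 was at 0.107 and 0.124 CPM in WT vehicle, 0.228 and 0.245 in WT inhibitor, 0.101 and 0.1 in TKO vehicle, 0.301 and 0.528 in TKO inhibitor, 0.353 and 0.265 in WT untreated, 0.199 and 0.258 in TKO untreated and 0.134 and 0.123 in Tet1-KO TKO cells. TKO inhibitor replicate 2 was highest. Dnajb8 was at 0 except in WT inhibitor replicate 1 (0.0285 CPM), TKO inhibitor replicate 1 (0.0274) and WT untreated replicate 2 (0.0441). Dnajc5b was at 0 except in WT vehicle replicate 2 (0.0311 CPM), TKO vehicle replicate 1 (0.0337), both TKO inhibitor libraries (0.0822 and 0.0311) and TKO untreated replicate 1 (0.0569). Over 9 haploid spermatid markers, summed levels were 0.529 to 2.45 CPM per library, and between 2 and 5 of the 9 were at 0 in each group. Prm1, Prm2 and Tnp1 had mean levels of 0.0335 CPM or less in WT and TKO vehicle cells. In the WT inhibitor, TKO inhibitor, WT untreated and Tet1-KO TKO groups, 1 of the 9 was at 1 CPM or more. Only 2 were tested in experiment 1, with 0 called in TKO under vehicle. With the inhibitor 1 rose in WT (4.51) and 1 in TKO cells (7.45), where 19% and 19.9% of all genes rose. These fitted values are against vehicle levels near 0, depend on the prior count and are not to be read as sizes. All 9 markers together summed to 0.937 to 1.04 CPM in TKO vehicle and 1.75 to 2.45 in TKO inhibitor libraries. In experiment 2 only 1 was tested, with a change of -1.79 in TKO, where 24.3% of all genes fell.

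Of the 38 ubiquitous members, 8 rose and 17 fell in TKO under vehicle (2 and 1 by a log2 of 1 or more). Without treatment 9 rose and 9 fell (1 and 2 by a log2 of 1 or more). The shares called, 65.8% and 47.4%, were near the 69% and 50.2% of all genes. With testis members included, 9 of the 41 tested rose and 18 fell under vehicle, where 34.8% of all genes tested rose and 34.2% fell. With library sizes alone in place of TMM factors, the median of all genes shifted from 0.01 to 0.16, the share of called genes that rose went from 50.5% to 63.5%, and 14 members rose and 9 fell. Without treatment 10 members rose and 11 fell (6 without TKO untreated replicate 1), where 50.2% of all genes were called (25.9% rose, 24.3% fell). The median change over the 38 ubiquitous members was -0.15 under vehicle and 0.00 without treatment, against 0.01 and 0.00 over all genes tested.

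**Figure D2:**
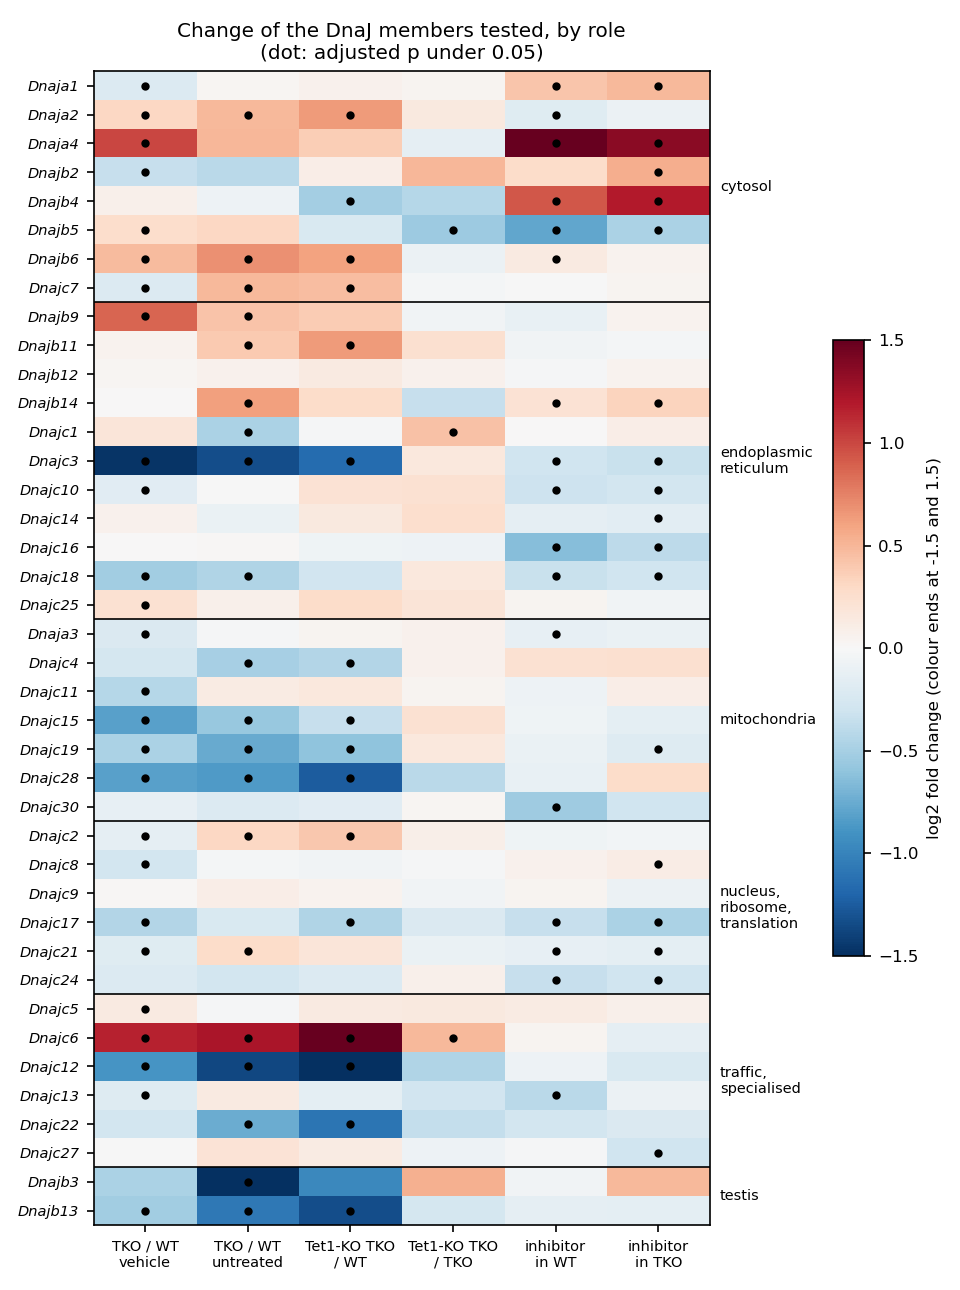
Log2 fold change of 40 members (rows, grouped by role; Dnajc5g left out because its WT level is 0) in 6 comparisons (columns), red for higher and blue for lower, with the colour scale ending at -1.5 and 1.5 and a dot where the adjusted p was under 0.05. Dnajc3 and Dnajc12 are blue and Dnajc6 red in each comparison of a knockout with WT, while Dnaja4 and Dnajb4 are red and Dnajb5 and Dnajc16 blue in both inhibitor columns.

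Under vehicle the largest fall was that of Dnajc3 (p58IPK), a lumenal co-chaperone of the endoplasmic reticulum that also restrains the stress kinase PERK. It was at 210.0 and 195 CPM in WT vehicle and 72.4 and 73.5 in TKO vehicle cells, and at 142 and 152 in WT and 58.2 and 58.8 in TKO cells without treatment. The groups were well apart in both experiments. The log2 change was -1.47 under vehicle (SE 0.05, edgeR adjusted p = 1.49e-17) and -1.33 without treatment (SE 0.10, adjusted p = 7.14e-07). In Tet1-KO TKO cells it stayed at 62.0 and 69.1 CPM, -1.16 against WT (SE 0.10, adjusted p = 1.45e-06). The neighbourhood of Dnajc3 on chromosome 14 was looked at after its values were seen. The 6 nearest coding genes tested were Sox21, Abcc4, Dzip1, Uggt2, Hs6st3 and Mbnl2. Of these, 5 fell under vehicle (median -1.08) and 4 fell without treatment (median -1.02), where 34.2% and 24.3% of all genes fell.

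Members of the endoplasmic reticulum changed in both directions. Of the 11, Dnajc3 included, 2 rose and 3 fell under vehicle (34.8% and 34.2% of all genes), and 3 rose and 3 fell without treatment (25.9% and 24.3% of all genes). Besides Dnajc3, Dnajc18 fell in both experiments (-0.52 and -0.45), and Dnajc10 fell under vehicle (-0.17). Dnajb9 (ERdj4), which assists degradation of misfolded proteins, was at 13.6 and 14.3 CPM in WT and 24.5 and 26.8 in TKO vehicle cells, and rose by 0.87 (SE 0.08, edgeR adjusted p = 8.38e-10). It rose by 0.43 without treatment (SE 0.16, adjusted p = 0.0412). The ribosome-binding member Dnajc1 was at 14.9 and 18 CPM in WT, 11.3 and 12.5 in untreated TKO and 15.9 and 16.4 in Tet1-KO TKO cells without treatment, so that only TKO stood lower. In experiment 1 its libraries lay within 13.0 to 17.0 CPM: 14.3 and 13.4 in WT vehicle, 14.5 and 13.0 in WT inhibitor, 16.2 and 15.1 in TKO vehicle and 16.7 and 17.0 in TKO inhibitor cells. It fell by 0.47 in TKO (SE 0.14, adjusted p = 0.0161) and was 0.44 higher in Tet1-KO TKO than in TKO (SE 0.14, adjusted p = 0.0407). The TKO call was lost without WT untreated replicate 2 (-0.33, adjusted p = 0.102) or TKO untreated replicate 1 (-0.40, adjusted p = 0.131). The Tet1 call was lost without any 1 of the TKO untreated or Tet1-KO TKO libraries (0.38 to 0.52, adjusted p = 0.0942 to 0.258). Dnajc1 shares exon bases with Mllt10, which changed by -0.63 and 0.33 in these comparisons.

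Of 16 unfolded protein response genes, 5 rose and 3 fell in TKO cells under vehicle (34.8% and 34.2% of all genes). Those that fell were Atf4, the translation-controlled stress factor (-2.15), Xbp1 (-0.41) and Pdia6 (-0.16). The highest rises were those of the stress sensor Ern1 (0.72), the degradation factors Sel1l (0.62) and Edem1 (0.59), and the disulfide isomerase Pdia4 (0.38).

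Dnajc6 (auxilin), which recruits Hsp70 to strip clathrin from vesicles, rose most in TKO cells among the members outside the testis set. It was at 10 and 10.7 CPM in WT vehicle and 22.4 and 23.7 in TKO vehicle cells. Without treatment it was at 20.6 and 19.5 in WT, 46.6 and 46.7 in untreated TKO and 64.4 and 66.4 in Tet1-KO TKO cells. The 3 untreated groups were ordered without overlap. With the inhibitor it was at 10.7 and 10.7 CPM in WT and 21.3 and 20.5 in TKO cells, with no call. The log2 change in TKO was 1.15 (SE 0.08, edgeR adjusted p = 1.02e-11) and 1.22 (SE 0.10, adjusted p = 1.78e-06), and the further rise with loss of Tet1 was 0.49 (SE 0.10, adjusted p = 0.00438). That further rise did not pass when either TKO untreated library was left out (0.49 in both, adjusted p = 0.0562 and 0.0533). The 6 nearest coding genes tested around Dnajc6 were also looked at after its values were seen. Of these, 5 rose under vehicle (median 1.37) and 3 without treatment (median 0.80), where 34.8% and 25.9% of all genes rose. Neighbours of other members went the other way: around Dnajc15, which fell, 4 of 6 rose and 0 fell in each experiment (medians 0.48 and 0.52). These counts carry no test.

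Dnajc12, a co-chaperone of the aromatic amino acid hydroxylases, fell. It was at 9.11 and 7.62 CPM in WT vehicle, 4.48 and 4.49 in TKO vehicle, 10.2 and 14.6 in WT untreated, 4.63 and 5 in TKO untreated and 3.33 and 3.73 in Tet1-KO TKO cells. WT libraries were highest in both experiments. Inhibitor libraries were at 7.67 and 8.11 CPM in WT and 4.11 and 3.48 in TKO cells. The log2 change in TKO was -0.89 (SE 0.13, edgeR adjusted p = 1.85e-06) under vehicle and -1.36 (SE 0.20, adjusted p = 0.000144) without treatment, and in Tet1-KO TKO against WT it was -1.80 (SE 0.20, adjusted p = 1.51e-05). Dnajc22, a membrane member, was at 5.86 and 5.44 CPM in WT and 4.31 and 5.02 in TKO vehicle cells, and at 9.11 and 9.18 in WT, 4.78 and 6.2 in untreated TKO and 3.92 and 4.61 in Tet1-KO TKO cells. It fell by 0.74 in TKO without treatment (SE 0.19, adjusted p = 0.00578; without TKO untreated replicate 1, -0.56 and adjusted p = 0.0829) and by 1.1 in Tet1-KO TKO against WT (SE 0.19, adjusted p = 0.000413). Under vehicle its value was -0.27 (adjusted p = 0.0928). Its inhibitor libraries were at 5.13 and 4.12 CPM in WT and 4.08 and 3.92 in TKO cells.

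Of the 7 mitochondrial members, 0 rose and 5 fell under vehicle (4 with library sizes alone), where 34.2% of all genes fell, and 0 rose and 4 fell without treatment, where 24.3% of all genes fell. These counts carry no test. Dnajc15, an inner membrane member, was at 25.6 and 22.9 CPM in WT vehicle, 13.1 and 14.7 in TKO vehicle, 21.6 and 24.7 in WT untreated, 15.9 and 15.2 in TKO untreated and 19.7 and 16.8 in Tet1-KO TKO cells. It fell by 0.81 (SE 0.09, edgeR adjusted p = 1.71e-08) and 0.57 (SE 0.13, adjusted p = 0.00398) in TKO, and by 0.34 in Tet1-KO TKO against WT (adjusted p = 0.0498), a call lost in 6 of 11 alternatives, among them leaving out WT untreated replicate 2 (-0.24, adjusted p = 0.216), Tet1-KO TKO replicate 2 (-0.23, adjusted p = 0.278) or either TKO untreated library (-0.34). Dnajc28 was at 3.18 and 3.79 CPM in WT and 2.09 and 1.91 in TKO vehicle cells, and at 4.41 and 4.32 in WT, 2.56 and 2.29 in untreated TKO and 1.88 and 1.79 in Tet1-KO TKO cells. WT was above the knockouts in each experiment for both genes. With the inhibitor, Dnajc15 was at 24 and 22.3 CPM in WT and 13.3 and 11.7 in TKO cells, and Dnajc28 at 3.14 and 3.38 in WT and 2.33 and 2.49 in TKO cells. Dnajc28 fell by 0.81 (SE 0.18, adjusted p = 0.000418) and 0.85 (SE 0.22, adjusted p = 0.00701) in TKO, and by 1.25 in Tet1-KO TKO against WT (SE 0.22, adjusted p = 0.000572). Without TKO untreated replicate 2 the untreated change of Dnajc28 was -0.77 (adjusted p = 0.063).

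Dnajc19, part of the import motor of the inner membrane, fell by 0.47 and 0.76 in TKO, and its WT untreated libraries were far apart at 69.6 and 111 CPM. It shares exon bases with Fxr1, which changed by 0.01 and 0.20 in these comparisons.

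Of the 8 cytosolic members, 4 rose and 3 fell under vehicle (34.8% and 34.2% of all genes). Without treatment 3 rose and 0 fell (25.9% and 24.3% of all genes). Dnajb6, a potent suppressor of aggregation, was at 221 and 214 CPM in WT vehicle, 299 and 303 in TKO vehicle, 180.0 and 210.0 in WT untreated, 321 and 305 in TKO untreated and 293 and 296 in Tet1-KO TKO cells. All knockout libraries were higher than all WT libraries of the same experiment. It rose by 0.47 (SE 0.04, edgeR adjusted p = 7.58e-10) and 0.69 (SE 0.10, adjusted p = 0.000174) in TKO, and by 0.60 in Tet1-KO TKO against WT (SE 0.10, adjusted p = 0.000448). Dnaja2 was at 323 and 316 CPM in WT vehicle, 400.0 and 391 in TKO vehicle, 265 and 286 in WT untreated, 399 and 373 in TKO untreated and 426 and 432 in Tet1-KO TKO cells. It rose by 0.31 (SE 0.04, adjusted p = 9.26e-07) and 0.49 (SE 0.10, adjusted p = 0.00129) in TKO, and by 0.64 in Tet1-KO TKO against WT (SE 0.10, adjusted p = 0.000163). With the inhibitor Dnaja2 was at 288 and 276 CPM in WT, a fall of 0.18 (adjusted p = 0.00181), and at 371 and 372 in TKO cells.

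In TKO against WT, the values of Dnaja2, Dnajb2 and Dnajb3 lay in the direction of their chromosome's median. Dnaja2 lies on chromosome 8, where the median of all genes tested was 0.33 in TKO under vehicle and 0.29 without treatment, against -0.02 and -0.03 on the other autosomes. Dnajb2 and Dnajb3 lie on chromosome 1, where the median was -0.40 and -0.46. Dnajb2, a ubiquitin-binding member, was at 8.97 and 7.09 CPM in WT and 5.96 and 6.6 in TKO vehicle cells. Its change was -0.35 (SE 0.13, edgeR adjusted p = 0.0197). That call was lost without WT vehicle replicate 1 (-0.20) or TKO vehicle replicate 1 (-0.28). It also did not pass with library sizes alone (-0.20, edgeR adjusted p = 0.188) or in DESeq2 (-0.34, adjusted p = 0.0644). Without treatment its value was -0.40 (adjusted p = 0.0912). Its untreated libraries were at 6.11 and 5.25 CPM in WT, 4.18 and 4.42 in untreated TKO, and at 6.55 and 5.62 for Tet1-KO TKO. In Tet1-KO TKO against WT the chromosome 1 median was -0.42, but Dnajb2 had a mean of 6.09 CPM against 5.68. In TKO inhibitor against WT vehicle cells the chromosome 1 median was -0.40, but Dnajb2 had a mean of 9.12 CPM against 8.03. The part of chromosome dosage in these results was not tested.

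Both experiments measured TKO against WT with no library in common. Of 41 members, 5 rose in both (12.2%), 7 fell in both (17.1%) and 3 were called in opposite directions (7.32%), against 22.8%, 20.8% and 0.945% of 15878 genes tested in both. Across the 38 ubiquitous members, log2 changes in the 2 experiments had a Pearson correlation of 0.81 and a Spearman correlation of 0.71, which describes these genes and has no p. The 3 opposite members were Dnajc7, Dnajc2, known also as ZRF1 and as a reader of ubiquitinated H2A, and the ribosome biogenesis factor Dnajc21. They fell under vehicle by 0.21, 0.13 and 0.18 and rose without treatment by 0.49, 0.31 and 0.28. With library sizes alone the vehicle values were -0.06, 0.02 and -0.03 and none passed, while the untreated rises did.

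In a fit over all 14 libraries, the TKO change differed between experiments for 9 of 42 members, 1 upward (0 without WT vehicle replicate 2, TKO vehicle replicate 1 or TKO untreated replicate 1, and 4 without WT untreated replicate 1) and 8 downward (4 without TKO vehicle replicate 1, and 5 without WT vehicle replicate 1 or TKO untreated replicate 1), where 12.9% of all genes were called (5.42% upward, 7.50% downward). Of the 9, Dnajc7 differed most, -0.73 (SE 0.10, edgeR adjusted p = 0.000163). Dnajc7 stood at 233 and 228 CPM in WT vehicle and 193 and 205 in TKO vehicle cells, but at 119 and 120.0 in WT untreated and 167 and 169 in TKO untreated cells. Its exons overlap those of Cnp and Nkiras2. Treatment with DMSO and the experiment cannot be told apart in this contrast.

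**Figure D3:**
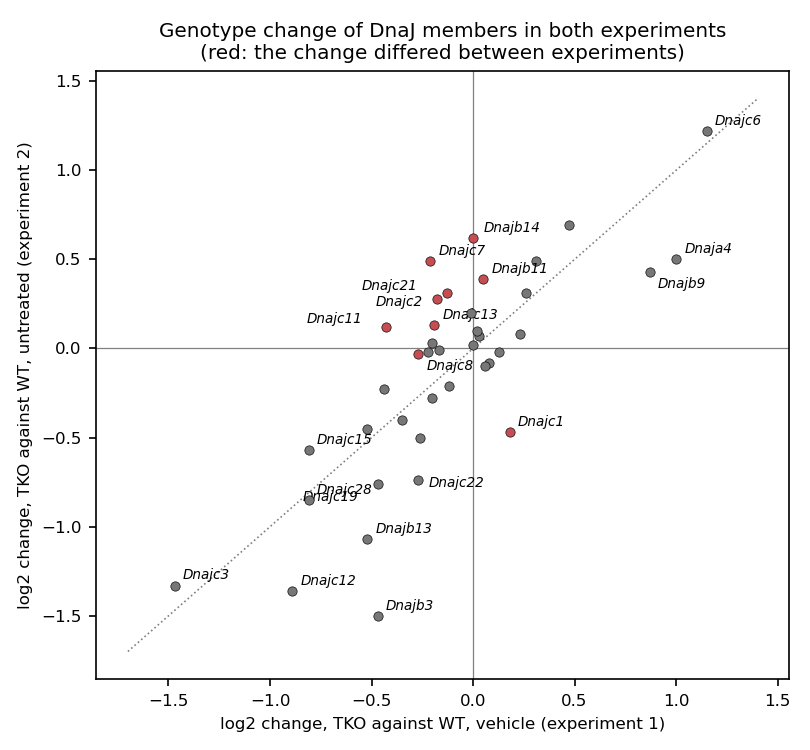
Each point is 1 of 40 members tested in both experiments (Dnajc5g left out), with its TKO against WT log2 change under vehicle on the x axis and without treatment on the y axis; the dotted line marks equal changes and red points are the 9 members whose change differed between experiments. Dnajc3, Dnajc12 and Dnajc28 lie low on both axes and Dnajc6 high on both, while Dnajc7, Dnajc2 and Dnajc21 lie left of 0 on the x axis and over 0 on the y axis.

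With the inhibitor, members changed in both directions in both genotypes. In WT cells 6 of 41 members rose and 12 fell, where 37.6% of all genes were called (19% rose, 18.7% fell). In TKO cells 6 rose and 12 fell (7 without TKO inhibitor replicate 1), where 39.5% were called (19.9% rose, 19.6% fell). Of the 8 cytosolic members 4 rose and 2 fell (Dnajb5 and Dnaja2) in WT, and 4 rose and 1 fell in TKO cells, with median changes of 0.20 and 0.27, while the median over all ubiquitous members was -0.07 and -0.09 and over all genes 0.01 and 0.00.

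The cytosolic class A member Dnaja4 had the largest rise among ubiquitous members. It was at 0.929 and 1.4 CPM in WT vehicle, 3.74 and 4.85 in WT inhibitor, 2.73 and 2.01 in TKO vehicle and 6.25 and 5.84 in TKO inhibitor cells. Inhibitor libraries of a genotype were always above its vehicle libraries, and TKO vehicle above WT vehicle. The log2 change with the inhibitor was 1.84 in WT (SE 0.22, edgeR adjusted p = 4.29e-07) and 1.35 in TKO cells (SE 0.18, adjusted p = 1.67e-06), and the genotype change under vehicle was 1.00 (SE 0.24, adjusted p = 0.000768). With both, Dnaja4 was 2.36 higher than with neither (SE 0.20, adjusted p = 2e-10). In experiment 2 it was at 1.38 and 1.68 CPM in WT, 1.76 and 2.55 in untreated TKO and 2.01 and 1.91 in Tet1-KO TKO cells, with no call. Dnaja4 shares exon bases with Wdr61, which fell by 0.14 and 0.26 with the inhibitor and by 0.71 with genotype under vehicle.

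Dnajb4, a class B relative of Dnajb1, was at 5.43 and 5.22 CPM in WT vehicle, 9.47 and 11 in WT inhibitor, 5.86 and 5.39 in TKO vehicle and 12.6 and 13.1 in TKO inhibitor cells. Inhibitor libraries were above every vehicle library, and the genotype value under vehicle was 0.08 (SE 0.13, adjusted p = 0.596). The changes with the inhibitor were 0.93 in WT (SE 0.12, edgeR adjusted p = 9.41e-07), 1.19 in TKO (SE 0.11, adjusted p = 8.76e-09) and 1.27 with both against neither (SE 0.11, adjusted p = 2.88e-10). Without treatment Dnajb4 was at 6.32 and 7.85 CPM in WT, 6.74 and 6.65 in untreated TKO and 4.67 and 5.25 in Tet1-KO TKO cells, the last -0.51 against WT (SE 0.18, adjusted p = 0.0323). That call was lost without WT untreated replicate 2 (-0.35, adjusted p = 0.194), Tet1-KO TKO replicate 1 (-0.42, adjusted p = 0.132) or either TKO untreated library (-0.51, adjusted p = 0.0549 and 0.0537).

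Dnaja1, the abundant cytosolic class A member, was at 451 and 438 CPM in WT vehicle, 593 and 599 in WT inhibitor, 377 and 394 in TKO vehicle and 517 and 568 in TKO inhibitor cells. It rose by 0.42 in WT (SE 0.05, edgeR adjusted p = 2.09e-07) and by 0.49 in TKO (SE 0.05, adjusted p = 1.92e-08). Its exons overlap those of Smu1, which changed by -0.15 and -0.05. Dnajb2 was at 9.33 and 9.95 CPM in WT inhibitor and 9.75 and 8.48 in TKO inhibitor cells, and rose by 0.54 in TKO (SE 0.12, adjusted p = 0.0012). In WT cells its value was 0.27 (adjusted p = 0.0883). Dnajb6 was at 235 and 240.0 CPM in WT inhibitor and 314 and 310.0 in TKO inhibitor cells, and its small rise in WT, 0.13 (SE 0.04, adjusted p = 0.0229), did not pass without WT vehicle replicate 2 (0.11, adjusted p = 0.0752), WT inhibitor replicate 2 (0.12, adjusted p = 0.0876) or either TKO vehicle library (0.12, adjusted p = 0.0555 and 0.0544).

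Dnajb5, also cytosolic, fell in both genotypes. It was at 14.9 and 15.7 CPM in WT vehicle, 8.27 and 9.7 in WT inhibitor, 18.5 and 18.2 in TKO vehicle and 13.2 and 13.1 in TKO inhibitor cells. The groups did not overlap in either genotype. It fell by 0.78 in WT (SE 0.10, edgeR adjusted p = 7.43e-07) and by 0.48 in TKO (SE 0.09, adjusted p = 0.000102). In experiment 2 it was at 15.5 and 14.5 CPM in WT, 19.2 and 17.9 in untreated TKO and 12.8 and 12.7 in Tet1-KO TKO cells, a fall of 0.54 with loss of Tet1 (SE 0.13, adjusted p = 0.0105; without TKO untreated replicate 1, -0.48 and adjusted p = 0.114; without Tet1-KO TKO replicate 2, -0.53 and adjusted p = 0.0514).

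**Figure D4:**
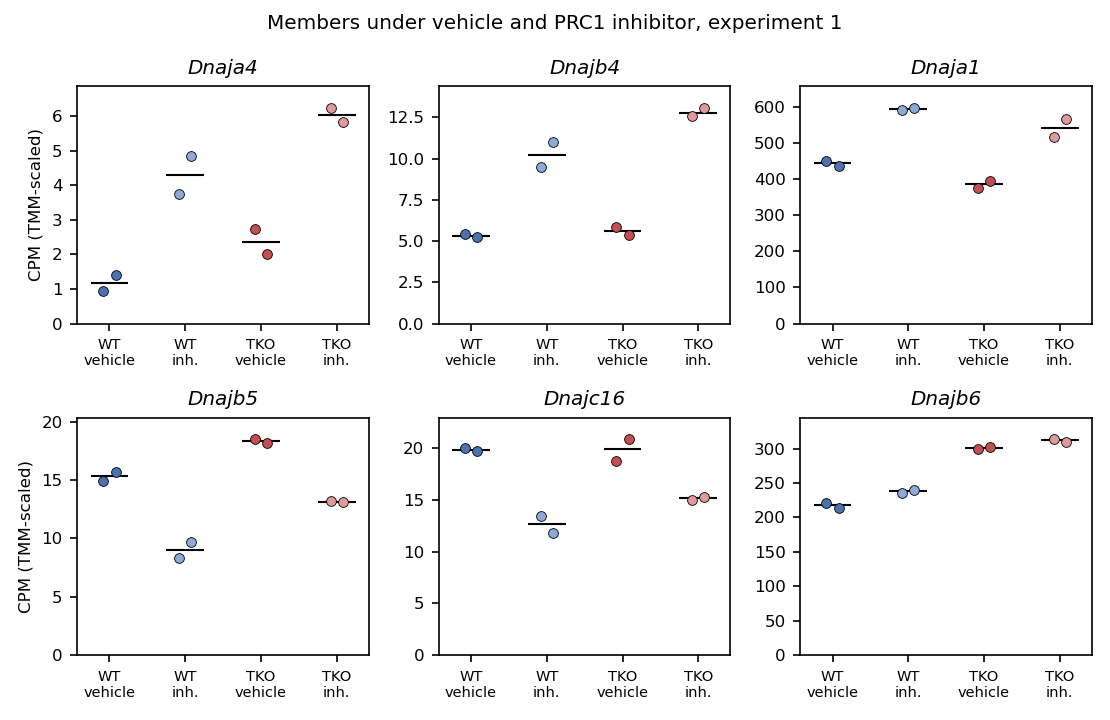
Level in CPM (linear axes from 0, a separate scale for each gene) of 6 members in the 8 libraries of experiment 1, with points for libraries and lines for the mean of 2. Dnaja4, Dnajb4 and Dnaja1 are higher and Dnajb5 and Dnajc16 lower with the inhibitor (inh.) in both genotypes, and Dnajb6 is set mainly by genotype.

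Of the 11 endoplasmic reticulum members, 1 rose and 4 fell in WT (19% and 18.7% of all genes), and 1 rose and 5 fell in TKO cells (19.9% and 19.6%). Dnajc16 was at 20 and 19.7 CPM in WT vehicle, 13.5 and 11.8 in WT inhibitor, 18.8 and 20.9 in TKO vehicle and 15 and 15.3 in TKO inhibitor cells. It fell by 0.64 (SE 0.09, edgeR adjusted p = 3.36e-06) and 0.39 (SE 0.08, adjusted p = 0.000668), and its genotype value under vehicle was 0.00 (SE 0.08, adjusted p = 0.984). Untreated WT cells had 17 and 14.8 CPM, untreated TKO cells 17.5 and 14.8, and Tet1-KO TKO cells 15 and 15.7, so these groups overlapped. Dnajc3 was at 173 and 155 CPM in WT inhibitor and 59.2 and 56.8 in TKO inhibitor cells, and fell by 0.30 and 0.33 (adjusted p = 4.95e-05 and 5.29e-05). The disulfide reductase Dnajc10 fell by 0.31 and 0.28 and Dnajc18 by 0.33 and 0.30, while Dnajb14, an integral membrane member, rose by 0.22 and 0.33.

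Outside these compartments, the splicing-associated Dnajc17 was at 9.97 and 10.8 CPM in WT vehicle, 7.73 and 8.81 in WT inhibitor, 7 and 8.27 in TKO vehicle and 5.86 and 5.10 in TKO inhibitor cells. It fell by 0.34 in WT (SE 0.12, edgeR adjusted p = 0.024) and by 0.47 in TKO (SE 0.13, adjusted p = 0.00409). The WT call was lost without WT vehicle replicate 2 (-0.27) or WT inhibitor replicate 1 (-0.23), and in DESeq2 (-0.34, adjusted p = 0.0988). The TKO call was lost without TKO vehicle replicate 2 (-0.37) or TKO inhibitor replicate 2 (-0.39). Dnajc17 also changed by -0.44 with genotype under vehicle (adjusted p = 0.00175; without TKO vehicle replicate 1, -0.33 and adjusted p = 0.0522), and it shares exon bases with Zfyve19, which changed by 0.04 and 0.03 with the inhibitor and by -0.56 with genotype. Untreated WT cells had 10.4 and 9.84 CPM of Dnajc17, untreated TKO cells 8.78 and 8.52, and Tet1-KO TKO cells 7.76 and 7.12. The mitochondrial Dnajc30 was at 4.29 and 4.7 CPM in WT vehicle, 3.17 and 3.06 in WT inhibitor, 4.27 and 4.02 in TKO vehicle and 3.4 and 3.36 in TKO inhibitor cells. It fell by 0.53 in WT (SE 0.15, edgeR adjusted p = 0.00789), and its value in TKO was -0.30 (adjusted p = 0.119). The WT call was lost without WT vehicle replicate 2 (-0.45) and in DESeq2 (-0.53, adjusted p = 0.0525). Untreated WT cells had 3.74 and 3.79 CPM, untreated TKO cells 3.27 and 3.26, and Tet1-KO TKO cells 3.11 and 3.56, with no call.

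Among 35 partner genes of DnaJ proteins, a few inducible ones rose steeply with the inhibitor, while the median was 0.15 in WT and 0.22 in TKO cells. In WT 18 rose and 6 fell (19% and 18.7% of all genes), and in TKO cells 17 rose and 5 fell (19.9% and 19.6% of all genes). The inducible Hsp70 genes Hspa1a (10.19 and 9.12), Hspa1b (8.07 and 7.73) and Hspa1l (5.38 and 5.63), and Hsph1 (2.84 and 2.49), which recharges Hsp70 with ATP, rose most. Hspa1a and Hspa1b are near-identical, so the split of reads between them is uncertain. The lumenal Hsp70 Hspa5, partner of Dnajc3, Dnajb9 and Dnajb11, fell by 0.50 and 0.67 and Hspa13 by 0.34 and 0.44. Of 16 unfolded protein response genes, 4 rose and 5 fell in WT and 3 rose and 6 fell in TKO cells, with Herpud1 at 1.12 and 0.23 (the latter not passing, adjusted p = 0.0565) and Ddit3 at 0.98 and 0.84.

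With genotype under vehicle, 11 partners rose and 13 fell, 68.6% of the 35 against 69% of all genes called. Among exchange factors Bag3 (1.94) and Bag4 (0.90) rose, and Bag2 (-1.30) and Hspbp1 (-1.08) fell. Hspa4l rose by 2.00 and Hspa1a by 1.05, and the mitochondrial J protein Hscb fell by 0.66. Without treatment 6 of the 34 partners tested rose and 7 fell in TKO, 38.2% against 50.2% of all genes. There the highest value among the 11 Hsp70 genes tested was 0.77, and the exchange factors ran from -1.88 to 1.57.

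Whether the inhibitor's change depended on genotype was tested as an interaction, which was called for 2 of 41 members, 1 in each direction, where 3.89% of all genes were called (1.77% upward, 2.12% downward). The endosomal Dnajc13 was at 257 and 257 CPM in WT vehicle, 199 and 191 in WT inhibitor, 217 and 233 in TKO vehicle and 210.0 and 214 in TKO inhibitor cells. Only the WT pair was apart by more than the spread between its libraries, with a change of -0.40 (SE 0.05, edgeR adjusted p = 2.61e-07) in WT and -0.09 (SE 0.05, adjusted p = 0.137) in TKO, and the interaction was 0.31 (SE 0.06, adjusted p = 0.00591). Without TKO vehicle replicate 1, or in 1 fit over both experiments, 0 members passed upward, and without WT inhibitor replicate 1, 0 passed downward. The other was Dnajc5g, whose WT vehicle level was 0. With the inhibitor in TKO cells against WT vehicle, 11 members rose and 22 fell, where 76.2% of all genes were called (39.6% rose, 36.7% fell), and this contrast shares its libraries with those of each agent alone.

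With loss of Tet1 in TKO cells, 2 members rose (Dnajc6 and Dnajc1) and 2 fell (Dnajc5g and Dnajb5) of 41, where 22% of all genes were called (11.6% rose, 10.4% fell). In 1 fit over both experiments, 6 rose and 5 fell. The count that rose was 0 without either TKO untreated library and 1 without either Tet1-KO TKO library, and the count that fell was 1 without TKO untreated replicate 1 or Tet1-KO TKO replicate 2. Against WT, 7 rose and 10 fell in Tet1-KO TKO cells (6 fell without WT untreated replicate 2, Tet1-KO TKO replicate 2 or either TKO untreated library), where 50.7% of all genes were called (26.3% rose, 24.4% fell). The TKO and Tet1-KO TKO comparisons share their WT libraries.

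Marker levels also moved with genotype, inhibitor and loss of Tet1. Of all genes tested, 34.8% rose and 34.2% fell in TKO under vehicle, and 25.9% and 24.3% without treatment. These shares were 19% and 18.7% with the inhibitor in WT, 19.9% and 19.6% in TKO, and 11.6% and 10.4% with loss of Tet1. Of 8 embryonic stem cell markers, 1 rose and 7 fell in TKO under vehicle, and 1 rose and 6 fell without treatment. The inhibitor comparisons had 0 rising and 6 falling in WT, and 0 and 5 in TKO cells. With loss of Tet1, 1 rose and 0 fell. Of 5 primitive endoderm markers, 4 fell in TKO in each experiment, 5 rose with loss of Tet1, and with the inhibitor 1 rose and 1 fell in WT and 2 fell in TKO cells. Their sum was 91.8 to 104 CPM in WT vehicle and 50 to 50.1 in TKO vehicle libraries, and 67.3 to 102 in WT, 21.9 to 38.2 in TKO and 43.7 to 96.6 in Tet1-KO TKO libraries without treatment. Summed trophoblast markers (7 genes) went from 1.87 to 2.18 CPM in WT vehicle to 51.1 to 56.2 in TKO vehicle libraries, and from 0.441 to 0.706 in WT untreated to 9.43 to 9.86 in TKO and 19.1 to 38.6 in Tet1-KO TKO libraries. Summed neural markers (5 genes) went from 84.3 to 92.3 CPM in WT vehicle to 182 to 189 in TKO vehicle libraries, and were at 97.1 to 98.4 in WT, 177 to 179 in TKO and 101 to 113 in Tet1-KO TKO libraries without treatment. With the inhibitor they were at 99 to 99.6 CPM in WT and 150 to 164 in TKO libraries. The part of these shifts in the members' changes was not tested.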

How the data were processed

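The authors deposited 2 tables of counts, one per experiment, of reads per Ensembl gene with no normalization; per the submitters' processing notes, reads were handled with Bowtie 0.12.8, TopHat2 2.0.2 and HTSeq 0.5.3p9 on mm9. Symbols, exon lengths and exon overlaps came from GENCODE M21, a later build, whose exon lengths may differ from those counted. Libraries were grouped by their titles. Each experiment was fitted in edgeR 4.0.16 (limma 3.58.1, R 4.3.3): filterByExpr with a minimum count of 10 and total of 15, TMM factors, 1 quasi-likelihood fit over its groups with no covariate, two-sided tests, and Benjamini-Hochberg adjustment over 16711 genes in experiment 1 and 16303 in experiment 2. Calls were made at an adjusted p below 0.05. The contrast between experiments used 1 fit over 14 libraries and 17246 genes. Residual degrees of freedom were 4, 3 and 7, and the biological coefficient of variation was 3.73% and 10.5%.

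Nothing in the labels says that replicates were grown separately, and p-values therefore reflect just the variation between these 2 libraries per group, possibly only technical. Replicates differed by 1.81 to 37.1 times counting noise (chi-square per degree of freedom), and none were identical. Floors of 3 counts cover counting error only. Roles, partner, stress and marker lists came from general knowledge, and the members and lists were chosen with earlier results of these data known. Values per library are given for 22 members: every testis member, every called member with a log2 change of 1 or more and no overlap, and the 3 largest rises and falls of each comparison, with a few others chosen after their values were seen (Dnaja1, Dnajb9, Dnajc7, Dnajc13 and Dnajc19, not in every library). The 18 members that share exon bases with another gene are uncertain where reads could be split. Alternatives were library sizes without TMM, DESeq2 1.42.0, no filter on low counts, 1 fit over both experiments, a replicate block, and leaving out each library. The fit was also run on simulated counts drawn with the spread estimated from these libraries, which cannot show whether that spread is right.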

Additional observations from a re-analysis of the deposited data

Results flagged for a closer look

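The inhibitor's change differed between genotypes for Dnajc13, by 0.31 on the log2 scale (SE 0.06, edgeR adjusted p = 0.00591), and the fitted interaction of Dnajc5g was -5.99 (adjusted p = 0.0146), a value that depends on the prior count because WT vehicle libraries held 0 counts. In 1 fit over both experiments 0 members were called in either direction, and without TKO vehicle replicate 1 the count of members called upward was 0, so the Dnajc13 call was lost. The Dnajc5g interaction did not pass without WT inhibitor replicate 1 (-5.40, adjusted p = 0.125).

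The TKO against WT change differed between vehicle and untreated cells for 9 members (vehicle minus untreated, edgeR adjusted p in brackets). It was lower under vehicle for Dnajb11 by a log2 of -0.37 (0.019), Dnajb14 -0.65 (0.0102), Dnajc11 -0.58 (0.00268), Dnajc13 -0.36 (0.034), Dnajc2 -0.47 (0.00575), Dnajc21 -0.49 (0.00361), Dnajc7 -0.73 (0.000163) and Dnajc8 -0.28 (0.0434). These 8 became 4 without TKO vehicle replicate 1, and 5 without WT vehicle replicate 1, without TKO untreated replicate 1 or with library sizes alone. It was higher under vehicle for Dnajc1, 0.61 (0.0162), and that call did not pass without WT vehicle replicate 2 (0.57, adjusted p = 0.0677), TKO vehicle replicate 1 (0.56, 0.0852) or TKO untreated replicate 1 (0.54, 0.0787).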

How the results depend on the processing

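Of 78 calls of named members, 53 held in direction and on the same side of the threshold under every alternative run; of 963 pairs of a call and an alternative, 79 no longer passed and 0 reversed. With library sizes alone, 14 members rose and 9 fell in TKO under vehicle, 1 rose with loss of Tet1, and 5 fell in the contrast between experiments. The share of called genes that rose moved from 51.9% to 61.5% with both agents against neither, from 52.9% to 40.6% with loss of Tet1, and from 41.9% to 72.9% between experiments. In DESeq2, 371 genes were called in the interaction, 1 member rose with loss of Tet1, and 6 fell in Tet1-KO TKO against WT. In 1 fit over both experiments, the inhibitor called 3742 genes in WT and 3823 in TKO cells, where 7 members fell; the interaction called 59 genes and 0 members in either direction; loss of Tet1 called 5971 genes, with 6 members rising and 5 falling; and 11 members rose in Tet1-KO TKO against WT.

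Leaving out single libraries, the contrast between experiments called 980 to 3299 genes, with 0 to 4 members rising and 4 to 11 falling; the interaction called 304 to 913 genes, with 0 to 1 rising and 0 to 1 falling; loss of Tet1 called 1633 to 4510 genes, with 0 to 3 rising and 1 to 3 falling. Members falling ranged from 7 to 12 with the inhibitor in TKO, from 6 to 10 in Tet1-KO TKO against WT, and from 6 to 12 in TKO without treatment. Where a group is left with 1 library, it is assumed to vary like the others.

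Replicate numbers are shared between groups, but the labels do not say what they mark. Same-numbered libraries' deviations correlated at -0.03 to 0.04 in experiment 1 and 0.11 to 0.24 in experiment 2, and with only 2 numbers they were not taken as pairs. A replicate block left 9 members rising and 18 falling in TKO under vehicle, and in the contrast between experiments 2 rose. In the bases before the start alone, the GAANNTTC or TTCNNGAA pair was in 7 member windows and its 3-unit form in 2. The endoplasmic reticulum stress element was in 1, GGCGGGA in 9 and CACGTG in 3. Members under about 1 CPM are limited by depth.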
